A study of Mus musculus with 10 samples.

Results

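Interleukins and interleukin receptors were taken as the genes of the deposited count table whose symbol begins with Il and a digit, which gave 84 of 56748 genes. Of these 84, 61 had counts in at least 1 of 10 libraries, 23 had 0 counts in all 10, and 36 were high enough to be tested among 14270 genes of the table. RNA-seq compared primary adipocytes of 5 control libraries (Fam20c-flox) with those of 5 Ad-Fam20c–KO libraries (Fam20c-flox/Adipoq-Cre), here called control and KO. In both groups the cells came from the inguinal stromal vascular fraction, the non-adipocyte cells of subcutaneous fat, of male mice 6 to 8 weeks old, and were driven to become adipocytes in culture for 6 to 8 days. The study's protocol for this used isobutylmethylxanthine, dexamethasone, insulin and rosiglitazone. Control mice carried the floxed Fam20c allele without Cre, the floxed line had been backcrossed to C57BL/6J for at least 5 generations, and Adipoq-Cre removes the allele only in cells that switch on the adiponectin promoter, so that other cells of the culture keep it. Fam20c encodes a kinase of the secretory pathway, and the comparison is of floxed cultures with and without Adipoq-Cre. Since every KO library and no control library carries Cre, loss of Fam20c and effects of the Cre transgene itself cannot be told apart. The labels do not say whether each library is a separate animal or culture, so the p-values measure the spread between these samples.

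Interleukins are secreted proteins through which leukocytes and tissue cells signal to each other, and each acts through a receptor built from a dedicated chain and, often, a chain shared by a whole family. IL-1 family cytokines signal through receptors that recruit MyD88, the IL-6 family through the shared chain gp130 and the JAK and STAT proteins, IL-4 and IL-13 through the IL-4 receptor alpha chain and STAT6, and IL-17 through paired IL-17 receptor chains. In fat, IL-1β and IL-6 are known from inflamed tissue, and IL-4, IL-13 and IL-33 from the type of immunity that accompanies lean tissue.

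Total counts were 18949106 to 26237825 in control and 19883101 to 23291792 in KO libraries. Control 4 and KO 1 stood apart from the other 8 libraries on the axis of largest variance, which held 23.5% of it, and calls that change without them are named. Fam20c had a mean of 10.2 ± 1.29 CPM in control and 7.30 ± 0.449 in KO (SD, n = 5 each; CPM is a count scaled to a common library size), with each KO library below each control library, although whole-gene counts do not show the deleted exons on their own. The 11 adipocyte markers summed to 31590 to 32440 CPM in control and 33270 to 35280 CPM in KO, without overlap. Most of that sum was Fabp4, at a mean of 20800 CPM in control and 22550 CPM in KO, while Lep was at 1.06 and 0.845 CPM. The summed macrophage markers were 1531 to 2342 and 1339 to 2214 CPM, mostly from Lyz2, at a mean of 1116 and 1161 CPM. RNA of macrophage genes was thus present beside that of adipocytes. Markers of T, NK and innate lymphoid cells summed to at most 0.845 CPM, with Cd3d, Cd3g, Gzma and Ncr1 at 0 in all 10 libraries.

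At the limit used, an adjusted p under 0.05 from the edgeR quasi-likelihood F test with Benjamini-Hochberg adjustment over all 14270 genes, 3 of the 36 tested interleukin genes passed. Il4ra, the receptor chain shared by IL-4 and IL-13, fell by 24.5%, and Il16, a chemoattractant cytokine that signals through CD4, fell by 44.7%. Il17rc, the chain that pairs with Il17ra to bind IL-17A and IL-17F, rose by 16.9%. Among all genes tested, 1.86% passed as lower and 0.308% as higher, 2.17% in all. DESeq2 called these 3 and also Il11ra1 as lower and Il6ra as higher, beside 2.52% of all genes as lower and 0.876% as higher, 3.39% in all. With 36 genes tested, the members' shares rest on 1 or 2 genes each.

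Among the 41 ligands and soluble inhibitors, 24 had any counts and 11 were tested, whereas 35 of the 41 receptor chains had counts and 24 were tested. The other 2 members were Il4i1, an amino acid oxidase named for its induction by IL-4, and Il1bos, an antisense transcript of Il1b. Il3, Il5, Il9, Il17a, Il17b, Il17f, Il21, Il22, Il22b and Il31 had no count in any library, as did Il12a, Il12b, Il20, Il24, Il36a, Il36b and Il36rn. Among receptors, Il5ra, Il11ra2, Il22ra1, Il23r, Il1rapl1 and Il1rapl2 were at 0. At this depth, 0 counts over all libraries allow a level of up to 0.0137 CPM, a limit that covers counting error only.

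The 25 members with counts that were too low to test had totals of 1 to 97 counts over the 10 libraries. Il4 had 1 count in control and 0 in KO, Il13 had 6 and 4, Il2 had 4 and 0, and Il25 had 0 and 2. The ligands of the IL-4 receptor thus left almost no counts in cultures that gave 2893 to 5103 Il4ra counts per library. Il1b, which encodes the inflammatory IL-1β, had 0 counts in control and 1 in KO, and no test can compare the groups on 1 count. Il1a had 8 and 5 (2-sided exact permutation test, p = 0.524). Il11, a gp130 cytokine, was the highest of the untested members, with 46 counts in control and 51 in KO. The highest untested receptors were Il13ra2, the IL-13 decoy receptor, with 42 and 27 counts, and Il17re, a receptor chain for IL-17C, with 33 and 36.

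Levels of different genes were compared as CPM per kilobase of annotated exon. Receptor chains took the 5 highest places in control. Il17rc stood highest at 45.0 ± 2.41 CPM per kilobase (SD, n = 5), followed by Il4ra at 32.6 ± 2.72, Il6st at 29.2 ± 3.38, Il1r1 at 14.5 ± 0.752 and Il11ra1 at 14.0 ± 1.51. Il17rc was above Il4ra, and Il6st above Il1r1, in every control library against every other, while Il4ra overlapped Il6st and Il1r1 overlapped Il11ra1. The same 5 genes held the 5 highest places in KO, where the mean of Il4ra, 24.6 ± 0.427 CPM per kilobase, was below that of Il6st, 29.4 ± 2.99, with libraries that overlapped. The median tested gene had 4.14 CPM per kilobase in control, and 12 of the 36 interleukin genes lay above it. The highest ligand was Il33, an alarmin of the IL-1 family, at 3.13 ± 1.45, followed by Il1rn, the secreted antagonist of the IL-1 receptor, at 1.43 ± 0.473 and Il34, another ligand of the CSF-1 receptor, at 1.43 ± 0.282 CPM per kilobase. In control, the libraries of Il1rn overlapped those of both Il33 and Il34, and Il33 lay above Il34. The plot of levels per length places Il33 at place 14 in control, with receptor chains in all the places above it.

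**Figure D1:**
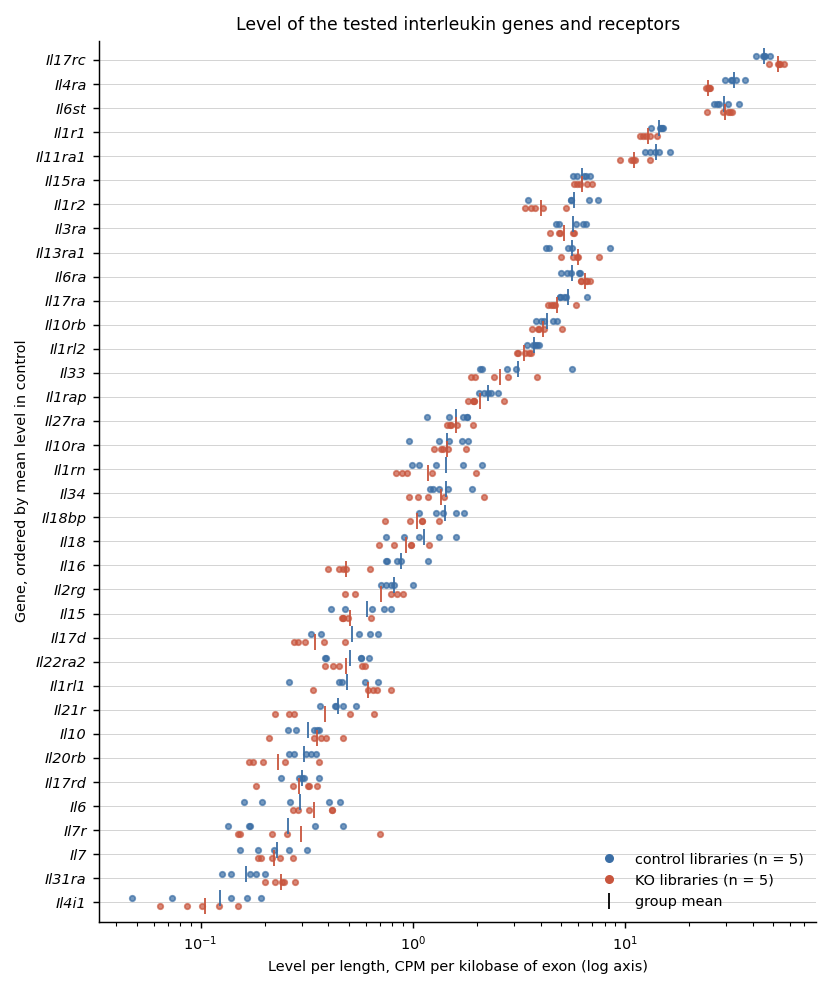
Level of each of the 36 tested interleukin genes and receptors in CPM per kilobase of annotated exon (log axis), with 1 point per library, control in blue and KO in red, and a bar at each group mean. The 5 genes with the highest mean in control are all receptor chains, from Il17rc at 45.0 to Il11ra1 at 14.0, and Il4i1 is the lowest at 0.124.

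Il4ra (ENSMUSG00000030748.10, protein coding, GRCm38 chromosome 7, 125552120 to 125579474, plus strand) had 189.8, 191.3, 220.9, 176.8 and 199.4 CPM across control 1 to 5. Across KO 1 to 5 it had 150.5, 143.7, 149.1, 148.3 and 147.2 CPM. The KO values lay within a narrow band that ended below the lowest control library. The means were 195.7 ± 16.3 and 147.8 ± 2.56 CPM (SD, n = 5), or a log2 fold change of -0.40 (standard error 0.0526, 95% interval -0.52 to -0.29, adjusted p = 0.00108 by the edgeR quasi-likelihood F test, Benjamini-Hochberg adjusted), rank 54 of 14270 genes. Leaving out any single library gave log2 fold changes of -0.44 to -0.35, and Il4ra passed in 10 of 10 such fits. An antisense gene, Gm44876, shares 571 exon bases with Il4ra and had 11 counts over all libraries.

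Il16 (ENSMUSG00000001741.13, protein coding, chromosome 7, 83642825 to 83745726, minus strand) had 5.93, 5.85, 9.27, 6.62 and 6.93 CPM across control 1 to 5 and 3.82, 3.69, 4.93, 3.12 and 3.51 CPM across KO 1 to 5. Library 3 was the highest of both groups, and every KO library lay below every control library. The change was -0.85 on the log2 scale (standard error 0.152, 95% interval -1.18 to -0.53, adjusted p = 0.00981 by the edgeR quasi-likelihood F test, Benjamini-Hochberg adjusted), and it passed in 10 of 10 fits with a library left out. This cytokine was already named by the study. Il16 shares 1202 of its 7865 exon bases with Stard5 on the opposite strand, and since the strand setting of the counting is not given in the sources used here, fragments of the overlap cannot be assigned to either gene. Stard5 itself had a log2 fold change of 0.02 (95% interval -0.08 to 0.12).

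Il17rc (ENSMUSG00000030281.17, protein coding, chromosome 6, 113471427 to 113483140, plus strand) had 119.8, 128.7, 110.6, 121.4 and 120.7 CPM across control 1 to 5 and 140.8, 141.3, 144.0, 127.6 and 149.4 CPM across KO 1 to 5. A single KO library, KO 4, lay below a control library, control 2. The means were 120.2 ± 6.45 and 140.6 ± 8.04 CPM (SD, n = 5), or a log2 fold change of 0.23 (standard error 0.0506, 95% interval 0.12 to 0.34, adjusted p = 0.0370 by the edgeR quasi-likelihood F test, Benjamini-Hochberg adjusted). The call was not stable to the choice of libraries, since it passed in only 3 of 10 fits with a library left out, those without control 2, control 4 or KO 4. Without control 1, 3 or 5 or KO 1, 2, 3 or 5, the adjusted p was 0.0680 to 0.108, with a log2 fold change of 0.20 to 0.23. No other gene overlaps Il17rc. Its partner Il17ra was at 46.5 ± 5.99 CPM in control and 41.5 ± 5.43 CPM in KO, with an adjusted p of 0.561 in the same edgeR fit.

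Markers of other cell types moved with the groups. Of 15 endothelial markers tested, 13 passed as lower in KO by the edgeR quasi-likelihood F test, Benjamini-Hochberg adjusted, and their summed level was 200.8 to 238.9 CPM in control and 89.3 to 125.3 CPM in KO, without overlap. Cldn5, a junction protein of endothelium, fell by 1.35 on the log2 scale, and Vwf and Tek were the 2 that did not pass. Stromal progenitor markers passed as lower for 3 of 8, with sums of 2826 to 3306 and 2431 to 2872 CPM, while 1 of 14 macrophage markers, Cd163, passed as lower. Kit, the only tested gene of 6 mast cell markers, passed as lower, and no mural, mesothelial or adipocyte marker did in the edgeR fit. Kit had a mean of 8.09 CPM in control, where all 6 mast cell markers summed to a median of 8.33 CPM. The other mast cell markers were thus near 0, and the fall of Kit does not show that mast cells fell. At an unadjusted p under 0.05, 2 of 3 tested mural markers were lower, 0 of 2 mesothelial markers differed and 5 of 11 adipocyte markers were higher. In bulk samples, fewer cells of a type and less RNA per cell cannot be told apart, and the part of these cells in the lower Il4ra and Il16 was not tested.

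The genes most like each called member over the 10 libraries, by Pearson's r of log2 CPM among the other 14269 tested genes, are given as a description, because the libraries of a group share a genotype. For Il4ra they were Ngfr (r = 0.984), Fscn1, Clec14a, Maged2 and Elk3, and for Il16 they were Cldn5 (r = 0.970), Tmem39a, Rapgef3, Gpihbp1 and Gtse1. Clec14a, Cldn5 and Gpihbp1 are known from endothelial cells. For Il17rc they were Rhob (r = 0.963), Dagla, Ahcy, Sun2 and Tgm2. With group means removed, r with Il4ra ran from 0.773 (Elk3) to 0.952 (Maged2), with 0.944 for Ngfr and 0.821 for Clec14a. With Il16 it ran from 0.749 (Gpihbp1) to 0.885 (Tmem39a), with 0.862 for Cldn5. With Il17rc it ran from 0.805 (Tgm2) to 0.944 (Dagla), with 0.885 for Rhob. These genes were picked by r over the same libraries, so a high r with group means removed is partly built in and is no separate support.

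At an unadjusted p under 0.05, 8 tested interleukin genes were lower and 3 higher, with the genes past the adjusted limit included. That is 11 of 36 or 30.6%, beside 11.9% of all genes tested. By direction, 7.46% of all genes were lower and 4.43% higher at that limit. Below 0 were 25 of the 36 fitted log2 fold changes, beside 50.3% of all genes, and the median was -0.14 beside -0.00 for all genes. KO libraries did not overlap control libraries for 2 genes as lower, Il4ra and Il16, and for 1 as higher, Il6ra, beside 2.66% and 1.31% of all genes (3.97% together). The plot of log2 fold changes shows that the intervals of the abundant receptors were narrow and those of the low ligands wide. For 32 of the 36 genes the 95% interval lay within a 2-fold change in either direction.

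**Figure D2:**
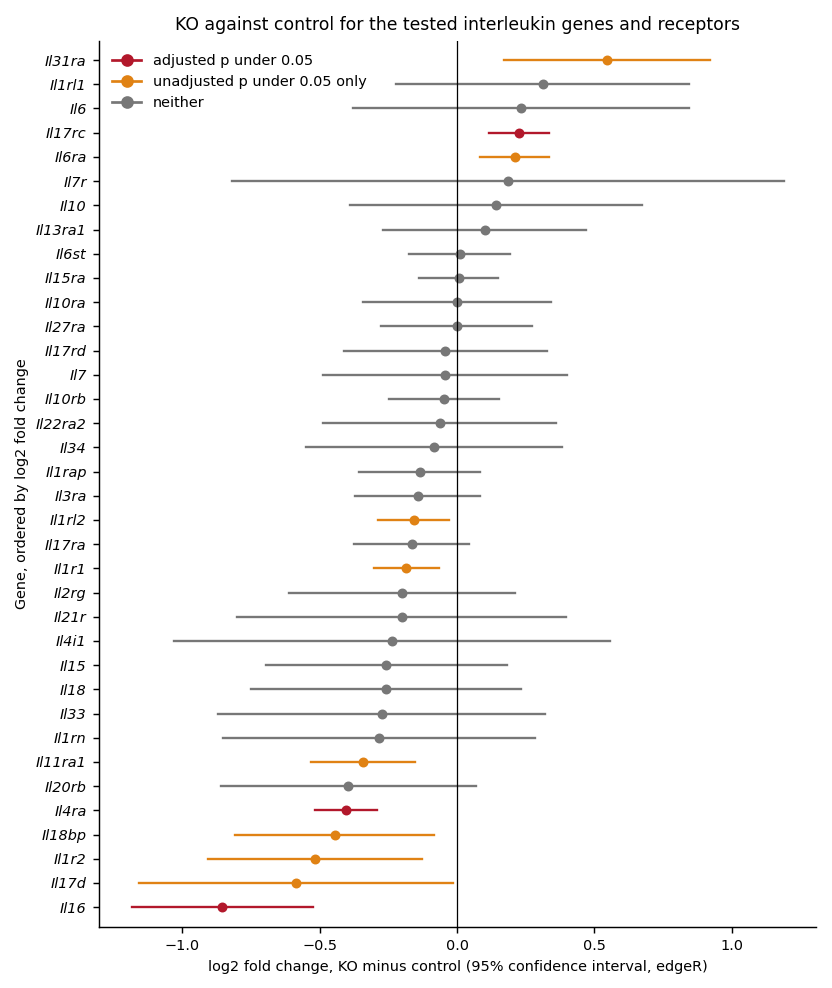
Log2 fold change of KO minus control for the 36 tested interleukin genes and receptors, with 95% confidence intervals from edgeR (5 libraries per group). Red marks the 3 genes with an adjusted p under 0.05, orange the 8 further genes with only an unadjusted p under 0.05, and grey the other 25, and the estimates run from -0.85 for Il16 to 0.55 for Il31ra.

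The 5 tested receptors grouped here with gp130 include Il31ra, which is listed by family and not for pairing with gp130. Of these, 0 passed the adjusted limit by edgeR. At an unadjusted p under 0.05, Il11ra1 was lower, and Il6ra and Il31ra were higher. DESeq2 called Il11ra1 and Il6ra, and limma voom Il11ra1. Il11ra1, the alpha chain for IL-11, had 58.4, 55.2, 72.8, 64.4 and 62.1 CPM across control 1 to 5 and 58.7, 42.4, 49.6, 47.7 and 48.7 CPM across KO 1 to 5. KO 1 was the only KO library to reach the control range. For Il11ra1 the log2 fold change was -0.34 (95% interval -0.53 to -0.15, adjusted p = 0.0731 by the edgeR quasi-likelihood F test, Benjamini-Hochberg adjusted), and DESeq2 gave an adjusted p of 0.0176. It passed in 1 of 10 edgeR fits with a library left out, the one without KO 1 (adjusted p = 0.0179), and the other 9 gave adjusted p-values of 0.054 to 0.19, with a log2 fold change of -0.28 without control 3. The gene has near-identical copies in the annotation, since Gm13305 matched 2578 of its 2605 transcript bases at 98.6% identity and Il11ra2 matched 421 bases at 98.1%. Gm13305 had 5 counts in all libraries and Il11ra2 had 0, and how fragments matching several genes were treated is not given in the sources used here, so the level of Il11ra1 is uncertain.

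Il6ra, the chain that binds IL-6, had 52.1, 52.8, 43.2, 47.8 and 46.0 CPM across control 1 to 5 and 53.7, 56.9, 58.9, 53.6 and 56.8 CPM across KO 1 to 5. Every KO library was above every control library, although control 2 and KO 4 were close. The log2 fold change was 0.21 (95% interval 0.08 to 0.34), with an adjusted p of 0.102 by the edgeR quasi-likelihood F test, Benjamini-Hochberg adjusted and 0.0354 by DESeq2. Il6st, which encodes gp130 itself, had 290.2 to 382.9 CPM in control, with a median of 308.5, and 270.5 to 352.1 CPM in KO, with a log2 fold change of 0.01 (95% interval -0.17 to 0.19). Il31ra, the chain for the itch cytokine IL-31, had 0.787, 0.712, 1.03, 0.967 and 1.14 CPM across control 1 to 5 and 1.14, 1.58, 1.40, 1.37 and 1.27 CPM across KO 1 to 5. The groups met at control 5 and KO 1, and the log2 fold change of 0.55 (95% interval 0.17 to 0.92) had an adjusted p of 0.170 in the edgeR fit. Gm3226, a pseudogene on the same strand with 64 counts over all libraries, shares 45 of the 5673 exon bases of Il31ra. Il27ra was at -0.00 (95% interval -0.28 to 0.27). The only tested ligand of the family with an interleukin symbol, Il6, had 8 to 23 counts per library, with 0.387 to 1.10 CPM in control and 0.662 to 1.01 CPM in KO. Its log2 fold change of 0.23 had a 95% interval of -0.38 to 0.84, which lies within a 2-fold change in either direction.

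In the IL-1 family, 4 of 4 tested ligands and inhibitors and 4 of 5 tested receptors had estimates below 0, and none passed by edgeR, with 1 and 3 of them at an unadjusted p under 0.05. Over all genes tested, 50.3% had estimates below 0, and 7.46% were lower at an unadjusted p under 0.05. DESeq2 called none of them either, and limma voom called Il1r2 (adjusted p = 0.0489). Il1r1, the signalling receptor for IL-1, had 93.9, 84.0, 92.6, 95.9 and 94.7 CPM across control 1 to 5 and 79.5, 83.7, 77.4, 89.9 and 75.2 CPM across KO 1 to 5. Control 2 lay among the KO libraries and KO 4 between control 2 and the others. The log2 fold change was -0.18 (95% interval -0.30 to -0.07, adjusted p = 0.136 by the edgeR quasi-likelihood F test, Benjamini-Hochberg adjusted). Il1r2, the decoy receptor that binds IL-1 without signalling, had 14.2, 12.9, 10.6, 6.67 and 10.6 CPM in control and 7.19, 6.85, 10.1, 7.83 and 6.41 CPM in KO, each in the order of libraries 1 to 5. Only control 4 lay within the KO range. Il1r2 passed in 1 of 10 fits with a library left out. With all libraries the log2 fold change was -0.52 (95% interval -0.91 to -0.13, adjusted p = 0.230), and without control 4 it was -0.65 (adjusted p = 0.0201), both from the edgeR quasi-likelihood F test, Benjamini-Hochberg adjusted. The other 9 fits gave adjusted p-values of 0.137 to 0.457, with a log2 fold change of -0.41 without control 1.

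Il1rl2, the receptor for IL-36 cytokines, had 25.6, 25, 26.8, 23.5 and 26 CPM across control 1 to 5 and 22.9, 23.9, 21.3, 24.7 and 21 CPM across KO 1 to 5. The groups overlapped through control 4, KO 2 and KO 4, with a log2 fold change of -0.16 (95% interval -0.29 to -0.03, adjusted p = 0.275 in the edgeR fit). Il1rap, the accessory chain shared by these receptors, had a log2 fold change of -0.14 (95% interval -0.36 to 0.08). Il1rl1, the receptor for IL-33, had 1.79 to 4.73 CPM in control and 2.33 to 5.45 CPM in KO, with a log2 fold change of 0.31 (95% interval -0.22 to 0.85).

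Among the ligands and inhibitors, Il18bp, the soluble inhibitor of IL-18, had 3.88, 4.20, 4.84, 3.24 and 5.28 CPM across control 1 to 5 and 3.32, 3.34, 2.23, 2.93 and 4.02 CPM across KO 1 to 5. The groups overlapped, since 3 KO libraries lay above control 4. The log2 fold change was -0.45 (95% interval -0.81 to -0.08, adjusted p = 0.274 by the edgeR quasi-likelihood F test, Benjamini-Hochberg adjusted). IL-18 itself (Il18) had 0.774 to 1.65 CPM in control and 0.713 to 1.22 CPM in KO, with a log2 fold change of -0.26 (95% interval -0.75 to 0.23). Il1rn had 5.45 to 11.7 CPM in control and 4.63 to 11.0 CPM in KO, and Il33 had 5.96 to 16.2 and 5.45 to 11.1 CPM. In both genes the highest library of each group was control 4 or KO 1, and their log2 fold changes were -0.28 (95% interval -0.85 to 0.28) and -0.27 (95% interval -0.87 to 0.32). For Il1rn the log2 fold change was -0.11 without control 4, -0.55 without KO 1 and -0.37 without both, and for Il33 it was 0.04, -0.46 and -0.14.

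**Figure D3:**
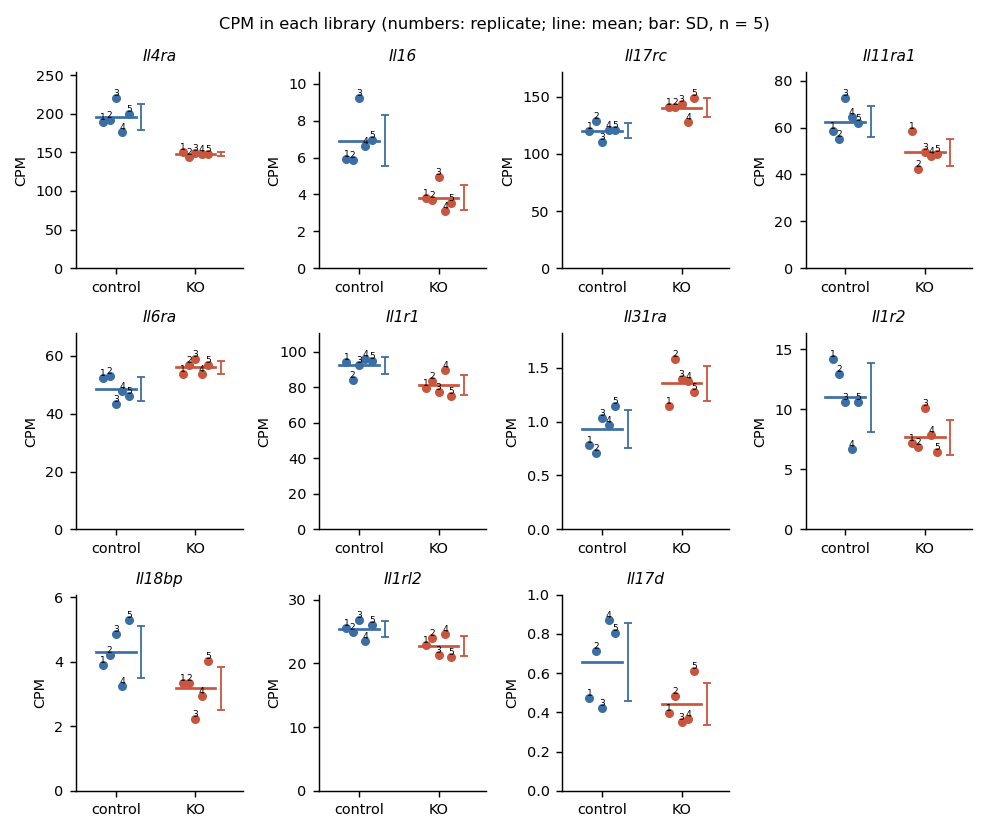
CPM in each library for the 11 interleukin genes and receptors with an unadjusted p under 0.05, ordered by p, with control in blue and KO in red, the replicate number above each point, a line at the mean and a bar for the SD (n = 5). Il4ra and Il16 separate as lower and Il6ra as higher without overlap, and in the other 8 genes the groups overlap or meet.

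Within the common gamma chain and IL-13 group, Il4ra was the only 1 of 6 tested receptors with an unadjusted p under 0.05. Il13ra1, which pairs with Il4ra to bind IL-4 or IL-13, had 15.7 to 31.3 CPM in control and 18.5 to 28.1 CPM in KO, with a log2 fold change of 0.10 (95% interval -0.27 to 0.47). The common gamma chain, Il2rg, the other partner of Il4ra, had 1.69 to 2.40 CPM in control and 1.14 to 2.13 CPM in KO, with a log2 fold change of -0.20 (95% interval -0.61 to 0.21). Gm20489, on the same strand and with 1 count over all libraries, shares 728 of the 2387 exon bases of Il2rg, so the level of Il2rg is uncertain. Neither partner chain passed, and the interval of Il2rg holds the estimate of Il4ra, while that of Il13ra1 ends above it. Il15ra, the chain that presents IL-15, had 25.3 to 30.2 CPM in control and 25.4 to 30.9 CPM in KO, with a log2 fold change of 0.01 (95% interval -0.14 to 0.15). Il15 and Il7, cytokines that maintain lymphocytes, had log2 fold changes of -0.26 (95% interval -0.70 to 0.18) and -0.04 (95% interval -0.49 to 0.40) at 22 to 35 and 18 to 38 counts per library. Il21r was at -0.20 (95% interval -0.80 to 0.40) and Il7r at 0.19 (95% interval -0.82 to 1.19), the widest interval of the 36.

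In the IL-17 family, Il17d was the only tested ligand, with 0.472, 0.712, 0.423, 0.870 and 0.803 CPM across control 1 to 5 and 0.397, 0.483, 0.349, 0.367 and 0.611 CPM across KO 1 to 5. Control 1 and control 3 lay within the KO range. These values rest on 8 to 19 counts per library, and the log2 fold change of -0.59 (95% interval -1.16 to -0.02) had an adjusted p of 0.404 by the edgeR quasi-likelihood F test, Benjamini-Hochberg adjusted. Il17ra, the chain common to most IL-17 receptors, had a log2 fold change of -0.17 (95% interval -0.37 to 0.04), and Il17rd, at -0.04 (95% interval -0.41 to 0.33), did not pass either.

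In the IL-10 family, none of 4 tested receptors and 1 tested ligand had an unadjusted p under 0.05 by edgeR, and none passed by DESeq2 after adjustment. Il10, an anti-inflammatory cytokine, had 6 to 14 counts per library, with 0.338 to 0.470 CPM in control and 0.275 to 0.611 CPM in KO and a log2 fold change of 0.14 (95% interval -0.39 to 0.67). Its shared receptor chain Il10rb had 14.4 to 18.2 CPM in control and 13.8 to 19.1 CPM in KO, with a log2 fold change of -0.05 (95% interval -0.25 to 0.15). Gm21970, on the same strand and with 0 counts over all libraries, shares 569 of the 3808 exon bases of Il10rb, so the level of Il10rb is uncertain. The dedicated chain Il10ra was at 0.00 (95% interval -0.34 to 0.34). Il20rb, part of the receptors for IL-20 and IL-24, was at -0.40 (95% interval -0.86 to 0.07), and Il22ra2, the soluble IL-22 antagonist, at -0.06 (95% interval -0.49 to 0.36).

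Outside these families, Il34 had 2.36 to 3.72 CPM in control and 1.88 to 4.22 CPM in KO, with a log2 fold change of -0.08 (95% interval -0.55 to 0.38). Il3ra, the chain for IL-3, was at -0.14 (95% interval -0.37 to 0.08). Il4i1 was at -0.24 (95% interval -1.03 to 0.56), and 86.3% of its exon bases are shared with other genes, so its counts are uncertain.

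A list of 59 genes that carry interleukin signals without an interleukin symbol held JAK and STAT proteins, SOCS inhibitors, gp130 partners, IL-1 and IL-17 adaptors, inflammasome genes and other shared receptors. Of its 53 tested genes, 0 passed the adjusted limit in either direction by edgeR, DESeq2 or limma voom, and 1 had an unadjusted p under 0.05. That gene was Sigirr, a negative regulator of IL-1 receptor signalling, at 0.892 ± 0.340 CPM in control and 0.472 ± 0.285 CPM in KO (SD, n = 5), with a log2 fold change of -0.88 (95% interval -1.76 to -0.00, adjusted p = 0.418 by the edgeR quasi-likelihood F test, Benjamini-Hochberg adjusted). The share at an unadjusted p under 0.05 was 1.89%, beside 11.9% of all genes, and the median log2 fold change was -0.00. By list, fitted values were below 0 for 7 of 10 JAK and STAT proteins, 3 of 8 SOCS inhibitors, 6 of 8 gp130 and IL-12 family partners, 4 of 12 IL-1 receptor signalling genes, 3 of 5 IL-1 and IL-18 processing genes, 2 of 5 IL-17 receptor signalling genes and 3 of 5 other shared receptors and ligands. The share below 0 over all genes tested was 50.3%.

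Control 4 and KO 1 were the highest library of their group in 10 of the 36 tested interleukin genes and the lowest in 1. Among all genes tested, they were the highest in both groups in 14.7% and the lowest in both in 12.4%. The 10 were Il17ra, Il1rn, Il33, Il13ra1, Il10rb, Il7r, Il34, Il17rd, Il6st and Il27ra, and the 1 was Il1rl1. Il33 thus stood high in these libraries, at 16.2 CPM in control 4 and 11.1 CPM in KO 1, where its receptor Il1rl1 stood low, at 1.79 and 2.33 CPM. The log2 fold change without control 4 and without KO 1, respectively, was -0.08 and -0.25 for Il17ra, 0.29 and 0.00934 for Il13ra1, and 0.15 and 0.46 for Il1rl1. Neither library made any of these 3, Il1rn or Il33 pass when left out. Without both libraries, Il4ra, Il16, Il11ra1 and Il1r2 passed as lower and no interleukin gene as higher, and Il17rc had an adjusted p of 0.0601 by the edgeR quasi-likelihood F test, Benjamini-Hochberg adjusted. Calls rose over all genes as well, with 351 lower and 144 higher in that fit, beside 265 and 44 with all libraries.

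**Figure D4:**
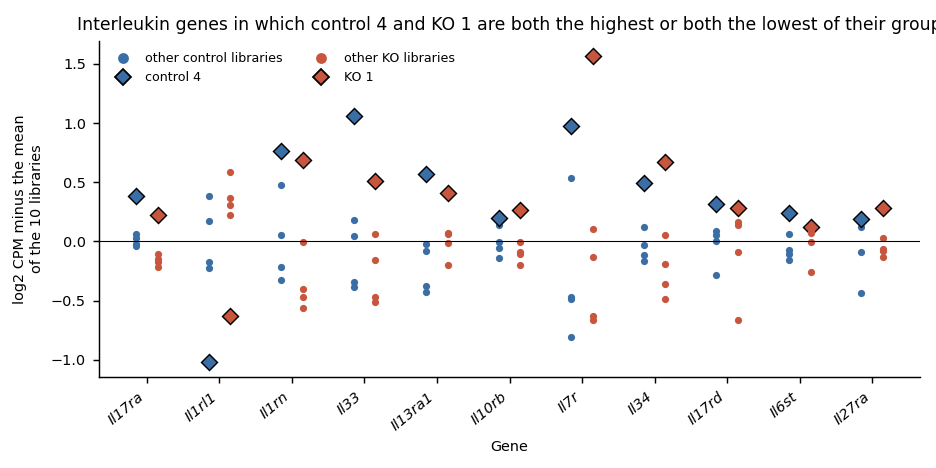
Log2 CPM minus the mean of the 10 libraries for the 11 interleukin genes and receptors in which control 4 and KO 1 were both the highest or both the lowest library of their group, with diamonds for these 2 libraries and circles for the other 8, control in blue and KO in red. Both diamonds lie on the upper side of their group in 10 genes and on the lower side in Il1rl1.

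Across the alternatives, Il4ra and Il16 were the genes that passed in every fit, as the plot of adjusted p-values shows. Il17rc was called by DESeq2 and limma voom as well, with adjusted p-values of 0.00311 and 0.0271. Il11ra1 passed by DESeq2, by limma voom (adjusted p = 0.0383) and without a filter on low counts (adjusted p = 0.0266 in the edgeR fit), each at a log2 fold change of -0.34.

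**Figure D5:**
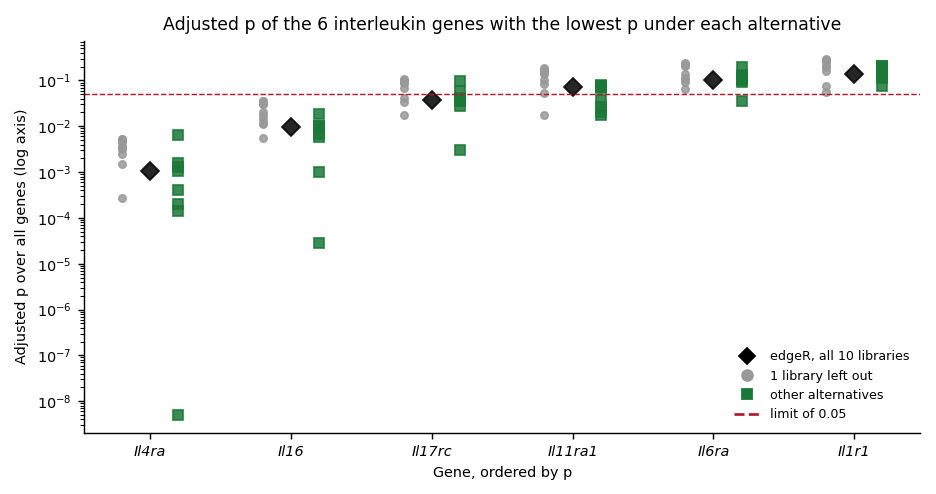
Adjusted p over all genes (log axis) for the 6 interleukin genes with the lowest p, under edgeR with all 10 libraries (black), with 1 library left out (grey) and under the other alternatives (green), with a dashed line at 0.05. Il4ra and Il16 lie below the line throughout, and Il17rc, Il11ra1 and Il6ra fall on both sides of it.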

How the data were processed

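RNA-seq libraries of primary differentiated adipocytes were made from 5 control and 5 KO samples. The legend of the study gives a smaller number per group than the 5 libraries deposited, and all 5 were used. The authors prepared them with SMARTer and Nextera XT chemistry, mapped 50-cycle paired-end reads to GRCm38.p6 with STAR, assigned fragments to genes with featureCounts, and deposited the counts without normalization. The strand setting and the treatment of multiply mapped fragments are not given in the sources used here.

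From these counts, low genes were removed (edgeR's filterByExpr, minimum count 10), libraries were scaled by TMM, and KO was tested against control with edgeR 4.0.16 in R 4.3.3 (quasi-likelihood test, unpaired, Benjamini-Hochberg adjustment over 14270 genes, limit 0.05). The standard error was obtained as the estimate over the root of its F. Exact permutation tests were 2-sided over 252 assignments, with a smallest p of 0.00794. Levels between genes used CPM per kilobase of merged GENCODE M21 exons. Genes were placed on GRCm38 with the same annotation, and transcripts were compared by BLAST 2.17.0 (at least 90% identity over 100 bases). The scripts were tested on simulated data.

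Members and lists were chosen with earlier results of these data known. Named were Fam20c, members past the limit, with an unadjusted p under 0.05 or without overlap between groups, the 5 highest per length, and a list of 20 core cytokines and receptors. From the signalling lists, genes past either limit were named. The 5 genes most correlated with each called member were listed. Marker genes named beside the lists were chosen after their values were seen. Depth was 18949106 to 26237825 counts per library, and intervals cover the spread between libraries. Alternatives were DESeq2 1.42.0, limma voom 3.58.1, other size factors, other filters, a replicate block, each library left out and, added after the data were seen, control 4 and KO 1 left out together. The result of 1 marker list is not reported here.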

Additional observations from a re-analysis of the deposited data

Results flagged for a closer look

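In 7 of 74 groups of 5 libraries, 1 library stood apart from the other 4 by Dixon's criterion, where chance gives about 1 in 20, or 3.7 groups. The groups are the same 10 libraries read gene by gene and are not independent, so these counts do not measure an excess over chance. For Il17ra both control 4 (57.0 CPM, the others 42.6 to 45.6) and KO 1 (51.0 CPM, the others 37.7 to 40.5) stood above the rest. KO 1 also stood high for Il15 (1.44 CPM, the others 1.05 to 1.12) and for Il7r (3.27 CPM, the others 0.698 to 1.19), and control 4 for Il33 (16.2 CPM, the others 5.96 to 8.83). Control 2 was low for Il1r1, at 84.0 CPM beside 92.6 to 95.9 CPM. KO 4 was high for Il1rap, at 30.6 CPM beside 20.5 to 22.1 CPM. Control 4 and KO 1 thus made 5 of the 7, and they are the libraries that lay apart over all genes.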

How the results depend on the processing

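Il4ra and Il16 passed in the same direction under every alternative run. The count of interleukin genes called lower, 2 with all libraries, was 4 by limma voom and 4 without control 4 and KO 1 together, and the count called higher, 1, was 2 by DESeq2, 0 with a replicate block and 0 without those 2 libraries. With 1 library left out, 2 to 3 interleukin genes were called lower and 0 to 1 higher. No pairing by replicate number is stated. Same-numbered libraries correlated at -0.25 to 0.26 once group means were removed, which cannot exclude a pairing. The replicate block left 193 lower and 21 higher calls over all genes, with an adjusted p of 0.0955 for Il17rc in the edgeR fit. Over all genes, 44 were called higher with all libraries, 125 by DESeq2, 111 by limma voom, 144 without control 4 and KO 1, and 18 to 116 with 1 library left out, the highest without control 4. Called lower were 265 with all libraries, 359 by DESeq2, 347 by limma voom, 351 without control 4 and KO 1, and 171 to 331 with 1 library left out. The share of calls that were lower was 85.8%, against 74.2% by DESeq2, 75.8% by limma voom, 74.0% without control 4 and 70.9% without both libraries. At an unadjusted p under 0.05, 6 to 9 interleukin genes were lower with 1 library left out.

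Estimates near 0 changed sign. Il27ra was at 0.00 by DESeq2 (0.00245), 0.03 by limma voom, 0.00253 with DESeq2's size factors, 0.00063 without a filter and 0.00336 with the block. Il10ra was at -0.07 by limma voom, -0.00481 with upper quartile scaling, -0.00206 with a mean CPM of at least 1 and -0.11 without control 4 and KO 1, and Il7r was at -0.09 without them. With 1 library left out, the log2 fold change ran from -0.46 to 0.04 for Il33, -0.40 to 0.49 for Il7r, -0.31 to 0.03 for Il34, -0.15 to 0.02 for Il22ra2, -0.12 to 0.09 for Il17rd, -0.15 to 0.10 for Il7, -0.03 to 0.08 for Il6st, -0.03 to 0.04 for Il15ra, -0.09 to 0.05 for Il27ra and -0.11 to 0.09 for Il10ra. The cause of these changes was not tested. Il6, Il10, Il17d and Il4i1 fell under the stricter filter and have no value there. Il6, Il10 and Il17d rest on 6 to 23 counts per library.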
